A study of Rattus norvegicus with 2 samples.

Results

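The interferon-induced genes Ifitm1, Ifitm2, Ifitm3, Isg15, Ifit2, Ifit3, Irf1, Irf7 and Mx1 were followed across the cell types of skeletal muscle from 1 rat-mouse chimera and 1 Sprague Dawley (SD) rat. Members were found by gene name, and all 9 have a row among the 23373 rat rows of both libraries and among the 25906 mouse rows of the chimera library. The rat rows of the members that the results turn on most are ENSRNOG00000004273 (Ifitm1), ENSRNOG00000015078 (Ifitm3), ENSRNOG00000036604 (Ifit2), ENSRNOG00000022839 (Ifit3) and ENSRNOG00000008144 (Irf1). The chimera had been made by injecting mouse induced pluripotent stem cells (iPSCs), which carried Pax7-nGFP and an edited Dmd mdx allele, into SD rat morulae, and its tissues therefore held cells of both species. The SD rat had received no mouse cells, and the age of neither animal is given in the labels. Muscle from the whole body was digested with collagenase, red cells were lysed, and live cells were sorted by a calcein dye before 3′ droplet libraries were made. With 1 animal and 1 library per group, differences between animals, digestions and libraries cannot be told apart.

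Interferons are secreted proteins that bind receptors on nearly all cells and act through JAK kinases on transcription factors. Type I interferons such as interferon beta (Ifnb1) act on target genes through interferon-stimulated response elements, and interferon gamma (Ifng) acts through gamma-activated sites. The IFITM proteins sit in membranes and hinder virus entry, IFIT proteins bind foreign RNA, MX1 is an antiviral GTPase, ISG15 is a ubiquitin-like modifier, and IRF1 and IRF7 are transcription factors of the same pathway.

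RefSeq promoter windows on rat build GRCr8, from 250 bases before to 50 bases after the start, were found for 6 members (Ifitm2, Ifitm3, Ifit3, Irf1, Irf7 and Mx1). They were searched on both strands for GAAA followed after any 2 bases by GAAA, the core of the interferon-stimulated response element, and for TTCNNNGAA, the core of the gamma-activated site, which reads the same on both strands. The first was present in 3.92% and the second in 8.87% of 33469 windows of 300 bases, and the windows of 5 members held at least 1 match. The stretches below are shown because these motifs are where interferon factors bind, with the matches in capitals and read 5′ to 3′ on the strand of the gene.
Ifitm3 (chr1:205541771-205541814, minus strand): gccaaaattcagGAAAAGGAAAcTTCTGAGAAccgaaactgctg
Ifitm2 (chr1:205482360-205482393, minus strand): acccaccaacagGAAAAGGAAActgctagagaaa
Ifit3 (chr1:241527270-241527303, plus strand): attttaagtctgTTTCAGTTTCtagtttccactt
Irf7 (chr1:205800071-205800104, minus strand): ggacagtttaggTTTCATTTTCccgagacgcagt
Irf1 (chr10:38417781-38417813, plus strand): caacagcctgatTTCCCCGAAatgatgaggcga
Ifitm2 and Ifitm3 shared the same letters of the first motif, which began at base -33 from the start in Ifitm2 and at base -44 in Ifitm3. Ifitm3 also held a match to the second motif, with 1 base between it and the first. Ifit3 and Irf7 held the first motif on the other strand, at bases -44 and -69. Irf1 held only the second motif, at base -142. The Mx1 window held neither motif. A match is a description of the letters and not a measured binding site.

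The chimera library held 118872850 UMIs over 13299 barcodes and the SD rat library 70957559 UMIs over 10117 barcodes, and 43 barcode sequences occurred in both. After filtering, 8816 SD rat cells, 8230 chimera rat cells and 1847 chimera mouse cells were kept, of which 1030, 876 and 210 reached no type, while 1653 mixed chimera barcodes were set aside. The largest types by SD rat and chimera rat cells were fibro-adipogenic progenitors (FAPs, 3154 and 2606), vascular endothelial cells (1144 and 729) and myofibre barcodes (1598 and 819), and the chimera mouse cells were mostly vascular endothelial (1106). In every type that was compared, the summed markers of its own type stood above those of any other type apart from myofibre genes. Myofibre markers were found in all rat types, at 3732 to 9247 CPM (UMIs per 1e6 UMIs of the same species) outside myofibres in the SD rat and at 2285 to 5646 CPM in the chimera. Cells at exactly 3 markers made up 9.31% of the SD rat, 9.38% of the chimera rat and 6.65% of the chimera mouse cells gated by marker number. Some gates were less secure. Such cells were 62 of 124 chimera rat and 19 of 75 SD rat monocytes or neutrophils, and 15 of 47 mouse macrophages. A further 233, 65 and 24 ungated cells had 2 markers of these types, in the same order. In rat macrophages, cells at the cut were 63 of 721 in the chimera and 21 of 400 in the SD rat.

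Free RNA and misassigned reads could be measured together in the chimera, because rat rows in mouse cells should be near 0. They cannot be told apart on these rows. Over mouse cell types, the rat rows gave 8.91 to 45.0 UMIs per 1e6 UMIs of both species for Ifitm3, 2.58 to 26.2 for Ifitm2, 1.63 to 6.85 for Ifitm1 and 0 to 25.9 for Irf1. The rows for Ifit2, Ifit3, Irf7 and Mx1 gave at most 3.08. Rat levels of the chimera at or under these values were not read as expression. Such levels still entered the ratios when a pair had at least 100 UMIs, as for Ifitm3 in myofibres. The SD rat library held no cells of another species, so free RNA could not be measured in it.

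In the SD rat, Ifitm3 was highest in the cells that line and support vessels and in connective tissue. Its level was 2388 CPM (95% interval 2346 to 2431) in vascular endothelial cells and 2254 CPM (2146 to 2366) in lymphatic endothelial cells, and these intervals overlapped. FAPs followed with 1785 CPM, mural cells with 1449 CPM and tenocytes with 981 CPM, each with an interval apart from its neighbours. Schwann or glial cells (384 CPM) and myogenic progenitors (335 CPM) did not differ beyond counting error. Myofibres, B cells, monocytes or neutrophils and macrophages had at most 70.5 CPM and mast cells 117 CPM. T or NK cells had 32.9 CPM from 11 UMIs, which is within the range that the rat row gave in mouse cells of the chimera.

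Ifitm2 shared much of this order. It was highest in lymphatic endothelial cells with 1676 CPM (1583 to 1773), followed by FAPs (984 CPM), vascular endothelial cells (862 CPM), tenocytes (804 CPM) and mural cells (795 CPM), of which the last 2 overlapped. Macrophages had 329 CPM, while B cells had 35.3 CPM from 7 UMIs. Over the 12 types with at least 50 cells, log2(CPM + 5) of Ifitm2 and Ifitm3 had a Pearson r of 0.865. These points share 1 library and differ in depth, so this r is a description.

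Ifitm1 had a different order. It was highest in T or NK cells with 877 CPM (779 to 983), mast cells with 766 CPM (681 to 859) and monocytes or neutrophils with 672 CPM (603 to 747), whose neighbouring intervals overlapped. FAPs had 257 CPM and macrophages 232 CPM. Only 6 UMIs were found in 101 lymphatic endothelial cells (8.27 CPM), where Ifitm2 and Ifitm3 were high, and 0 in 50 B cells, which allows up to 15.1 CPM (3 UMIs). Across the same 12 types its r was 0.276 with Ifitm2 and -0.06 with Ifitm3.

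Irf1 was highest in vascular endothelial cells with 431 CPM (413 to 450), followed by lymphatic endothelial cells (301 CPM), mural cells (269 CPM) and FAPs (248 CPM). The intervals of these last 3 overlapped from each to the next, and that of vascular endothelial cells stood apart. Macrophages had 40.2 CPM and mast cells 10.4 CPM from 4 UMIs. The r of Irf1 with Ifitm3 over the 12 types was 0.871. Irf7, the factor that amplifies type I interferon output, was highest in monocytes or neutrophils (113 CPM) and vascular endothelial cells (85.6 CPM), and these intervals overlapped. All other SD rat types had 26.9 CPM or less.

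The IFIT genes were found in few cells. Ifit3 reached 686 CPM (616 to 762) in monocytes or neutrophils, 182 CPM (169 to 197) in macrophages and 88.8 CPM (80.8 to 97.5) in vascular endothelial cells. Ifit2 reached 117 CPM in macrophages and 96.4 CPM in vascular endothelial cells. Their r over the 12 types was 0.866. In macrophages 83.7% of the Ifit3 UMIs and 89.6% of the Ifit2 UMIs came from the 10% of cells with most of them. Mx1 was near 0 in the SD rat, with 103 UMIs in the whole library and at most 15.1 CPM, from 3 UMIs in B cells.

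The rat row of Isg15 held 2 UMIs in the SD rat library and 4 in the chimera library, while the mouse row held 8213. ISG15 could thus not be read in rat cells, and its mouse row is given for mouse cells alone. The same held for rat Ifit1 (45 and 37 UMIs on its rat row).

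**Figure D1:**
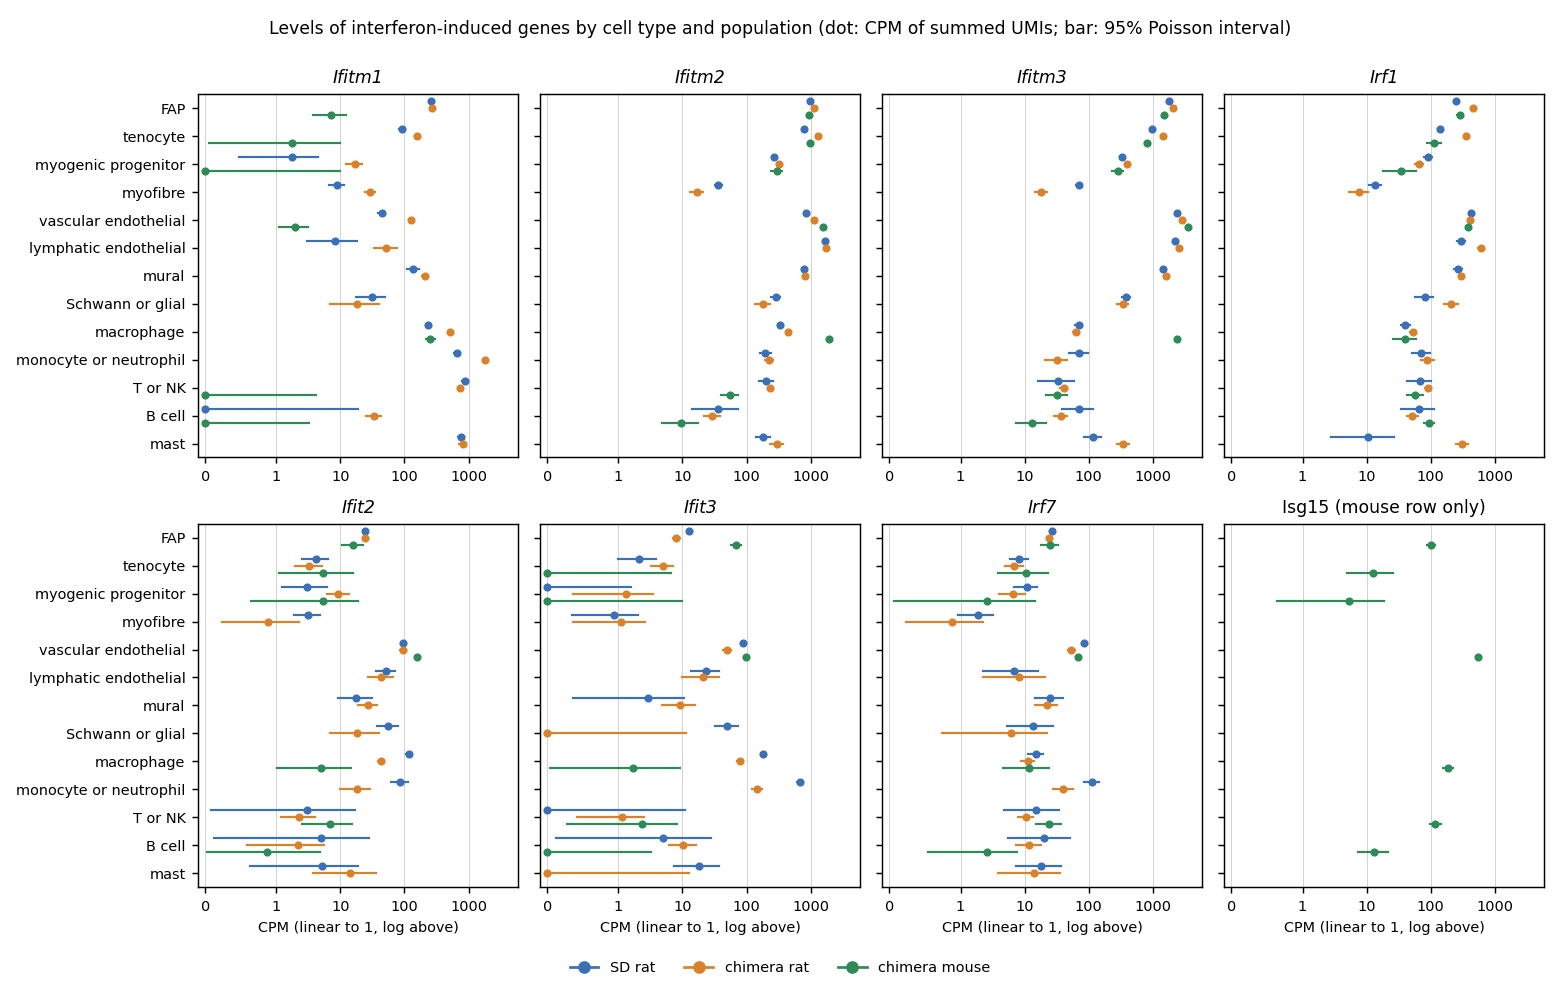
CPM of 8 members (Isg15 as the mouse row alone) by cell type (rows) for SD rat, chimera rat and chimera mouse cells, with dots for summed UMIs and bars for 95% Poisson intervals, on an axis that is linear to 1 and logarithmic above. Ifitm3 stands above 1000 CPM in vascular endothelial cells of all 3 populations, and in macrophages only the mouse cells (2381 CPM) do so.

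By the rule fixed for genes of most similar pattern, Ifitm3 across the 12 SD rat types was closest to Igfbp7 (r = 0.975), Rhoj (0.969), Pam (0.967), Cachd1 (0.967) and Tshz2 (0.965) among 8256 genes. Irf1 was closest to Ttc28 (0.976), Lrp6 (0.96), Arhgap21 (0.942), Wdr48 (0.940) and Luzp1 (0.932). No member was on either list, and Isg15 had too few UMIs for one.

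Rat cells of the chimera were next set against SD rat cells, with no mouse cells in either group. Of 117 pairs of member and cell type, 55 had at least 100 UMIs over both groups, and the other 62 were not read. At least 2-fold higher values in the chimera rat cells were found in 9 of the 55 (16.4%), against 1.32% of all gene values read in the same types, and at least 2-fold lower values in 4 (7.27%), against 2.21%. The 9 were Irf1 in 3 types, Ifitm1 in 4 types, Mx1 in T or NK cells and Ifitm3 in mast cells. The 4 were Ifit3 in 2 myeloid types, Ifit2 in macrophages and Ifitm3 in myofibres. Ifitm2 and Irf7 passed 2-fold in no type where they were read. No member passed 2-fold in FAPs, where 0.220% of all genes were higher and 0.731% lower, in myogenic progenitors (0.371% and 1.93%), in mural cells (1.36% and 2.01%) or in B cells (3.35% and 6.44%).

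Irf1 was higher in connective tissue of the chimera. In FAPs, it had 459 CPM (451 to 467) in the chimera and 248 CPM (243 to 253) in the SD rat, a log2 ratio of 0.88 that did not reach 2-fold. In tenocytes, it had 359 CPM (344 to 375) against 142 CPM (131 to 153), a log2 ratio of 1.31, and a UMI was found in 60.6% against 42.7% of cells at median depths of 8077 and 7474 UMIs. Of all genes in tenocytes, 0.600% were at least 2-fold higher and 1.19% lower. The tenocytes of the animals overlapped widely: medians were 127 CPM for chimera cells and 0 for SD rat cells, with upper quartiles of 387 and 187 CPM.

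In lymphatic endothelial cells, Irf1 had 615 CPM (547 to 689) against 301 CPM (262 to 343), where 1.02% of genes were at least 2-fold higher and 2.90% lower. The log2 ratio of 1.02 was 0.97 without the cell with most UMIs of each library, and the ratio reached 2-fold in 9 of 16 alternatives. In Schwann or glial cells, the 208 CPM of the chimera against 80.6 CPM rested on 1 cell, which held 44 of 68 UMIs, and without the top cell of each library the log2 ratio was 0.20. There, 2.61% of genes were at least 2-fold higher and 4.13% lower. In mast cells, which had 94 Irf1 UMIs in all and so were not read, 49 of the 90 chimera UMIs came from 1 cell. In vascular endothelial cells, Irf1 had 415 CPM against 431 CPM, with overlapping intervals.

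Immediate early genes, which respond within minutes to handling and digestion among other stimuli, were measured beside Irf1 in these types. In FAPs, Egr1 had 1858 against 912 CPM, Ier2 594 against 293 CPM and Fos 3352 against 1737 CPM, while Fosb had 979 against 1415 CPM. In tenocytes, Ier2 had 552 against 252 CPM and Egr1 983 against 535 CPM, while Fosb (960 against 1152 CPM) and Zfp36 (754 against 800 CPM) were lower. In vascular endothelial cells, where Irf1 did not differ beyond counting error, the median log2 ratio of the 7 immediate early genes read was 0.05, against 0.61 in FAPs and 0.42 in tenocytes. Of these 7 genes, 2 passed 2-fold upward in FAPs, 1 in tenocytes and 0 in vascular endothelial cells. Their median was 0.56 in lymphatic endothelial, 0.58 in Schwann or glial and 1.43 in mast cells. There, 1, 2 and 5 of the 7 genes passed 2-fold upward, in the same order. The part of digestion in the Irf1 values was not tested.

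Ifitm1 was higher in myeloid and endothelial cells of the chimera. In monocytes or neutrophils, it had 1812 CPM (1722 to 1906) against 672 CPM (603 to 747), a log2 ratio of 1.42, where 2.33% of genes were at least 2-fold higher. In macrophages, it had 517 CPM (501 to 534) against 232 CPM (216 to 248), a log2 ratio of 1.14, where 0.915% of genes were at least 2-fold higher. A UMI was found in 40.8% of chimera rat macrophages and 23.0% of SD rat macrophages, at median depths of 8570 and 8233 UMIs, and the 10% of chimera macrophages with most Ifitm1 held 77.8% of its UMIs.

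In vascular endothelial cells, Ifitm1 had 127 CPM (117 to 138) against 44.0 CPM (38.4 to 50.2), and 1 chimera cell held 151 of the 574 UMIs, while 1.06% of genes were at least 2-fold higher. Without the cell with most UMIs in each library the log2 ratio was 1.28, against 1.43 with it. In myofibres, 29.2 CPM stood against 8.73 CPM, from UMIs in 3.42% and 1.56% of barcodes, and 34 of 133 chimera UMIs were in 1 barcode, while 0.772% of genes were at least 2-fold higher. This ratio fell under 2-fold in 4 of 17 alternatives, to a log2 ratio of 0.19 when myofibres were separated from other types at 2 markers. In T or NK cells (734 and 877 CPM), mast cells (814 and 766 CPM) and FAPs (270 and 257 CPM), all of which had high Ifitm1 in both animals, the ratio stayed under 2-fold.

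Ifit3 was lower in both myeloid types of the chimera, and Ifit2 in macrophages. In macrophages, Ifit3 had 78.5 CPM (72.1 to 85.3) against 182 CPM (169 to 197), a log2 ratio of -1.17, and Ifit2 had 42.6 CPM (38.0 to 47.7) against 117 CPM (106 to 128), a log2 ratio of -1.35. At least 2-fold lower values were found for 1.10% of genes there. Of the 23 other induced genes that could be read in macrophages, 2 were at least 2-fold lower and 1 higher. The lower ones were Oasl, of the oligoadenylate synthetase family (353 against 854 CPM), and the chemokine gene Cxcl10 (442 against 905 CPM). The higher one was Cxcl9, a chemokine gene of the gamma response (38.2 against 3.58 CPM). Of the 8 macrophage markers, 7 were lower in the chimera rat macrophages, from C1qa (3360 against 4045 CPM) to Cd163 (233 against 248 CPM), and Cd68 was higher (618 against 539 CPM). All 8 markers of monocytes or neutrophils were higher, led by Plac8 (282 against 62.8 CPM), G0s2 (100 against 31.1 CPM) and Fcnb (70.7 against 5.24 CPM). The part of monocyte-like cells in the macrophage values was not tested.

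Ifnb1 was found almost only in macrophages. It had 54.9 CPM (47.5 to 63.0) from 199 UMIs in the SD rat and 16.4 CPM (13.5 to 19.6) from 116 UMIs in the chimera, with at least 1 UMI in 47 of 400 (11.8%) and 41 of 721 (5.69%) macrophages. The cells with an Ifnb1 UMI held 44.1% of the Ifit3 UMIs and 50.4% of the Ifit2 UMIs of SD rat macrophages, and 33.6% and 31.8% of those of chimera rat macrophages. In the SD rat, Ifit3 had 608 CPM (540 to 681) in macrophages with Ifnb1 and 118 CPM (106 to 130) in those without. In the chimera, these levels were 397 CPM (342 to 458) and 55.8 CPM (50.2 to 61.8). Cells with Ifnb1 had somewhat more UMIs, with medians of 9527 against 8147 in the SD rat and 9560 against 8507.5 in the chimera. When macrophages with Ifnb1 were left out, the log2 ratio of chimera over SD rat was -1.01 for Ifit3 and -0.99 for Ifit2. Ifit2 then stayed just under 2-fold.

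**Figure D2:**
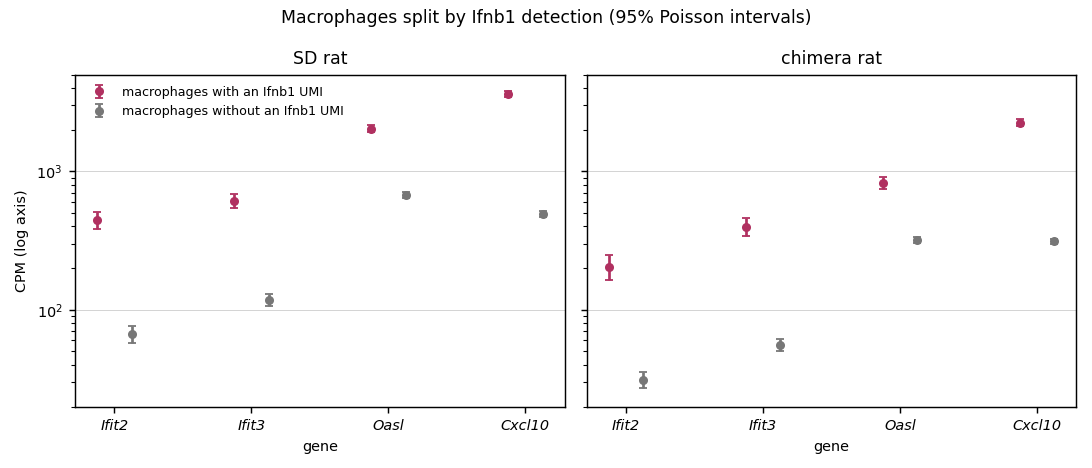
CPM (log axis) of Ifit2, Ifit3, Oasl and Cxcl10 in SD rat and chimera rat macrophages with and without an Ifnb1 UMI, with 95% Poisson intervals. All 4 genes stand higher in the cells with Ifnb1 in both animals, and both groups of cells stand higher in the SD rat.

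In monocytes or neutrophils, Ifit3 had 148 CPM (123 to 176) in the chimera and 686 CPM (616 to 762) in the SD rat, a log2 ratio of -2.18, where 3.22% of genes were at least 2-fold lower. Irf7 (40.5 against 113 CPM, 92 UMIs) and Ifit2 (17.8 against 85.7 CPM, 59 UMIs) pointed the same way but had too few UMIs to be read. Of 8 other induced genes read there, 0 were at least 2-fold lower and 1 was higher, Gbp2 (223 against 93.5 CPM). Their median log2 ratio was 0.41, against 0.05 over all genes read, and 2.33% of all genes were at least 2-fold higher. The makeup of this gate differed between the animals, since the neutrophil genes S100a9 and S100a8 had 6843 and 2833 CPM in the chimera and 26404 and 11911 CPM in the SD rat. Of its other markers, Cxcr2 and Fcnb were also lower in the chimera (44.0 and 1173 against 103 and 1456 CPM), while Plac8 (5651 against 4073 CPM), G0s2 (4110 against 3397 CPM) and Csf3r (80.9 against 78.0 CPM) were higher. Cells with at least 1% of UMIs on these 2 genes were 19 of 124 in the chimera and 28 of 75 in the SD rat. Among these cells, Ifit3 had 1953 CPM (1609 to 2348) in the chimera and 2790 CPM (2489 to 3116) in the SD rat, which is less than 2-fold apart. Among the other cells it had 14.1 CPM (7.02 to 25.2) and 94.9 CPM (67.1 to 130), which is more than 2-fold apart but from only 11 and 38 UMIs. The Ifit3 UMIs of the gate were mostly in the S100a8 and S100a9 cells of both animals (113 of 124 and 314 of 352), and the chimera had fewer such cells. The part of the gate's makeup in the Ifit3 values was not tested. Ifitm1 was higher in the chimera on both sides of this split, with 2281 against 1235 CPM and 1778 against 514 CPM.

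In vascular endothelial cells, Ifit3 had 49.7 CPM against 88.8 CPM (log2 ratio -0.78) and Irf7 54.1 CPM against 85.6 CPM (-0.62), while Ifit2 had 94.1 CPM against 96.4 CPM with overlapping intervals. None of the 3 passed 2-fold. Of 27 other induced genes read there, 2 were at least 2-fold lower, namely the antiviral Rsad2 (4.64 against 17.7 CPM) and the nucleotide hydrolase Samhd1 (21.9 against 51.6 CPM), and 0 were higher. Their median log2 ratio was -0.35, against -0.04 over all genes read, and 1.70% of genes were at least 2-fold lower. The most abundant, Bst2, which tethers budding viruses, had 1220 against 1435 CPM, and Ifi27 had 1182 against 988 CPM. In FAPs, 1 of 27 was past 2-fold, Parp14 at 41.7 against 96.1 CPM, against 0.731% of all genes lower. In mural cells, 1 of 5 was past 2-fold, Parp14 at 44.9 against 99.3 CPM, with 2.01% of all genes lower. In tenocytes, 1 of 13 was past 2-fold and higher, Cxcl9 at 100 against 34.2 CPM, with 0.600% of all genes higher. In myogenic progenitors, 1 of 7 was higher, Cxcl10 at 99.3 against 40.5 CPM, with 0.371% of all genes higher.

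Among the remaining values, Ifitm3 in myofibres had 18.2 CPM (14.5 to 22.6) in the chimera and 70.3 CPM (64.0 to 77.1) in the SD rat, where 3.29% of genes were at least 2-fold lower. The chimera level was within the range that the rat row gave in mouse cells. Bst2 (4.83 against 26.0 CPM) and Ifi27 (18.0 against 50.7 CPM), abundant in endothelial cells, and Socs3 (15.1 against 50.8 CPM) were lower in myofibres too, and the part of free RNA from other cells was not tested. Mx1 in T or NK cells had 21.6 CPM (17.9 to 26.0) in the chimera from 114 UMIs against 5.99 CPM (0.725 to 21.6) from 2 UMIs in only 43 SD rat cells, where 4.86% of genes were at least 2-fold higher. Ifitm3 in mast cells had 348 against 117 CPM, and 62 of the 100 chimera UMIs were in 1 cell, where 3.75% of genes were at least 2-fold higher and 5.40% lower. Without the top cell of each library its log2 ratio was 0.92. Socs3 in mast cells had 539 against 23.4 CPM, from 155 and 9 UMIs. FAPs, vascular endothelial cells and lymphatic endothelial cells had Ifitm3 at 2121 against 1785, 2923 against 2388 and 2555 against 2254 CPM, and none of these passed 2-fold.

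**Figure D3:**
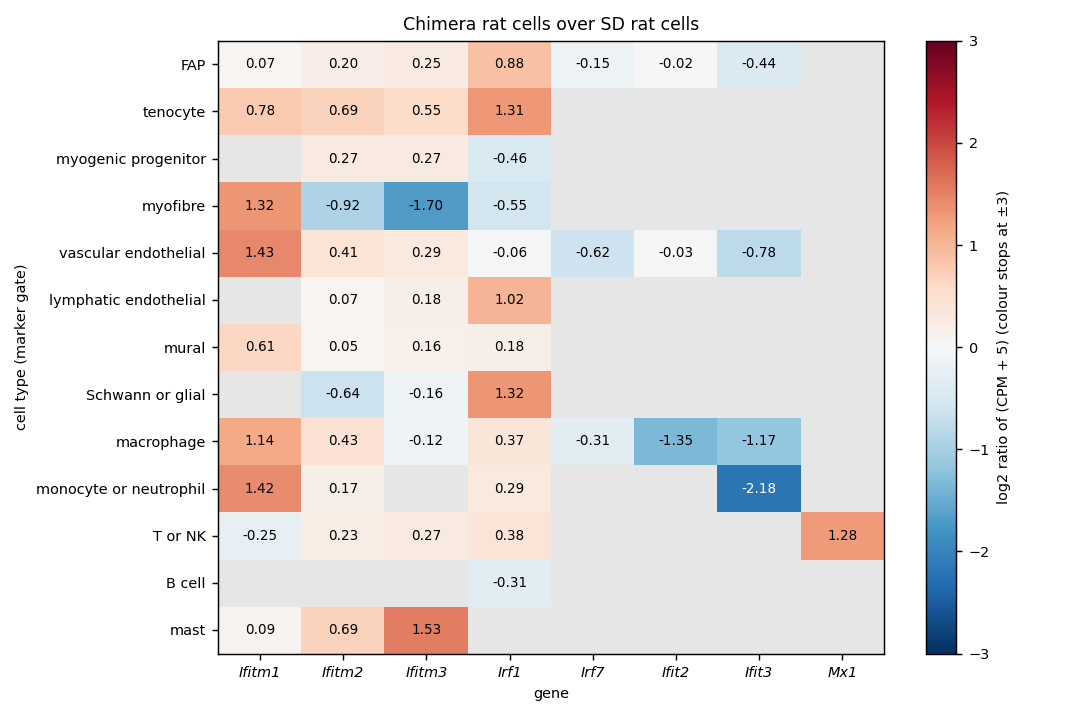
Log2 ratio of (CPM + 5), chimera rat over SD rat, for 8 members (columns) and 13 cell types (rows), with red for higher in the chimera and grey for pairs under 100 UMIs. Ifit2 and Ifit3 are lower in macrophages (-1.35 and -1.17), Irf1 is higher in tenocytes (1.31), and Ifitm1 is higher in macrophages (1.14) and monocytes or neutrophils (1.42).

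The pathway list in lymphocytes had more genes higher in the chimera than lower. In T or NK cells, 6 of 17 other induced genes read were at least 2-fold higher and 1 lower, among them the immunoproteasome gene Psmb9 (294 against 105 CPM), Ifi44l (55.1 against 18.0 CPM) and Cxcl10 (30.2 against 5.99 CPM), with 35, 6 and 2 UMIs in the SD rat. In B cells, 2 of 6 were higher, the immunoproteasome genes Psmb9 (287 against 116 CPM) and Psmb8 (335 against 161 CPM), where 3.35% of all genes were higher and 6.44% lower. Outside that list, Irf8 (66.5 against 20.2 CPM) and Socs3 (94.6 against 30.2 CPM) were higher in B cells too, with 4 and 6 UMIs in the SD rat. These rest on 43 and 50 SD rat cells, and 4.86% and 4.58% of all genes were at least 2-fold higher and lower in T or NK cells. Only Irf1 of the members could be read in B cells, with 51.9 against 65.5 CPM and overlapping intervals. Of the receptors and signal carriers, 0 passed 2-fold in FAPs, tenocytes, vascular endothelial cells and macrophages, where 7 to 10 of the 12 in the files were read.

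At equal depth, the antiviral members were found in a minority of cells. After each cell was thinned to 1000 UMIs, at least 1 of Ifit2, Ifit3, Irf7 and Mx1 was found in 30 of 75 SD rat monocytes or neutrophils (40.0%, 28.9 to 52.0) and 21 of 122 of the chimera (17.2%, 11.0 to 25.1). In macrophages, the shares were 15.1% (11.7 to 19.0) and 8.75% (6.79 to 11.1), and in rat vascular endothelial cells 19.1% (16.8 to 21.6) and 14.5% (11.9 to 17.3). Mouse vascular endothelial cells had 20.2% (17.8 to 22.8). FAPs had 5.87%, 5.80% and 5.79% in SD rat, chimera rat and chimera mouse cells. Cells under 1000 UMIs were left out, 82, 31 and 48 of the vascular endothelial cells in the same order.

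At least 2 of these 4 genes were found in 2.54% (1.68 to 3.68) of SD rat, 1.43% (0.689 to 2.62) of chimera rat and 2.84% (1.92 to 4.02) of chimera mouse vascular endothelial cells, and these intervals overlapped. In SD rat macrophages with an Ifit3 UMI after thinning, 11 of 37 (29.7%) also had Ifit2, against 14 of 360 without Ifit3 (3.89%). In the chimera, it was 3 of 32 (9.38%) against 22 of 688 (3.20%), with overlapping intervals. SD rat vascular endothelial cells showed no such excess, with 5 of 64 (7.81%) against 81 of 998 (8.12%). In chimera mouse vascular endothelial cells, it was 16 of 81 (19.8%, 11.7 to 30.1) against 81 of 977 (8.29%, 6.64 to 10.2). Chimera rat vascular endothelial cells had 4 of 20 (20.0%) against 60 of 678 (8.85%), with overlapping intervals.

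**Figure D4:**
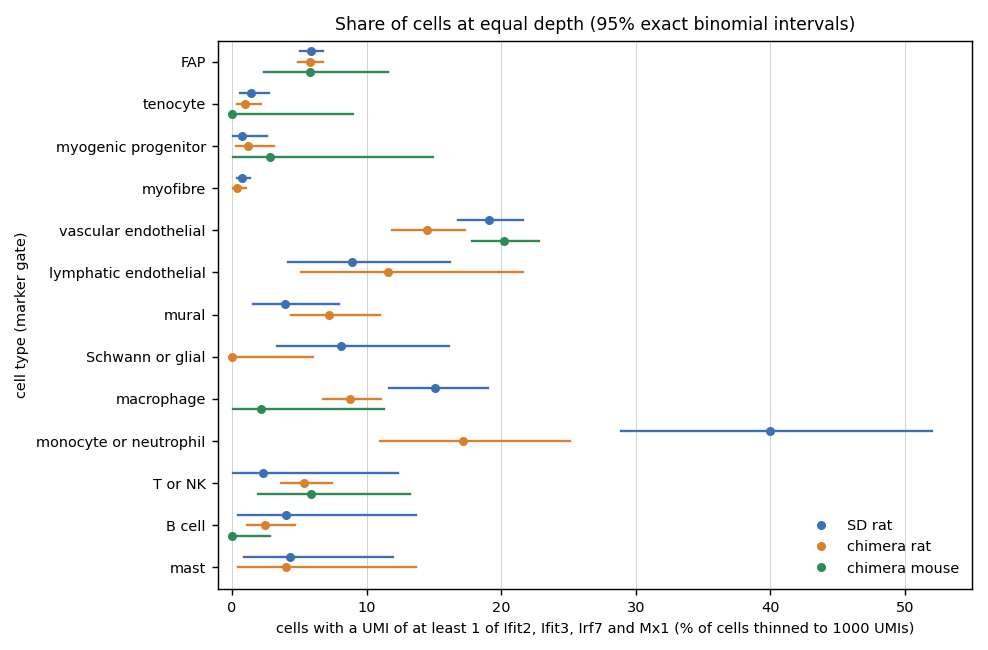
Percent of cells, thinned to 1000 UMIs, with a UMI of at least 1 of Ifit2, Ifit3, Irf7 and Mx1, by cell type and population, with 95% exact binomial intervals. Monocytes or neutrophils of the SD rat have the highest share (40.0%), and myofibres, myogenic progenitors and tenocytes of both rats stay under 2%.

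Within the chimera, mouse and rat cells of each type came from the same animal, digestion and library, but they were read on rows of separate annotations, so that species and gene annotation cannot be told apart. Of 63 pairs of member and type, 37 were read. At least 2-fold higher in mouse cells were 7 (18.9%), against 10.8% of all gene values, and at least 2-fold lower were 10 (27.0%), against 14.7%. The 7 include Isg15 in 4 types, where the rat row held at most 1 UMI, and these 4 cannot be read as a difference. The 18.9% counts them, so it is not read as an excess over the 10.8%. The other 3 higher values were Ifitm2 and Ifitm3 in macrophages and Ifit3 in FAPs.

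More members passed 2-fold in macrophages than in any other type. Ifitm3 had 2381 CPM (2259 to 2507) in mouse macrophages and 63.9 CPM (58.2 to 70.1) in rat macrophages, which is 34.6-fold on the (CPM + 5) scale. A UMI of Ifitm3 was found in 47 of 47 mouse macrophages, in 136 of 721 rat ones (18.9%) and in 107 of 400 of the SD rat (26.8%), at median depths of 12429, 8570 and 8233 UMIs. Ifitm2 had 1924 CPM (1815 to 2038) against 444 CPM (429 to 460). Ifit2 and Ifit3 went the other way, with 3 UMIs (4.98 CPM) and 1 UMI (1.66 CPM) in mouse macrophages against 42.6 and 78.5 CPM in rat ones. In mouse macrophages, 10.1% of all genes were at least 2-fold higher and 24.5% lower. They carried all 8 macrophage markers, but at 571 to 1527 CPM for C1qa, C1qb and C1qc, against 2605 to 3360 CPM in the rat cells. Of the monocyte or neutrophil markers, Plac8 (400 against 282 CPM) and Csf3r (13.3 against 2.54 CPM) were higher in mouse macrophages, while S100a8 was lower (6.64 against 14.0 CPM) and Fcnb, G0s2, S100a9 and Cxcr2 were at 0 UMIs. The part of these marker differences in the member values was not tested.

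In FAPs, mouse Ifit3 had 67.9 CPM (56.5 to 80.8) against 8.01 CPM (7.02 to 9.10) in rat cells, where 11.8% of all genes were at least 2-fold higher. Mouse Ifit3 has a near-identical copy, Ifit3b, with 357 UMIs of its own in the chimera, so reads shared by the copies can be lost and the mouse level is uncertain. The IFITM genes are also similar paralogs in both species. Ifitm2, Ifitm3, Ifit2, Irf1 and Irf7 in FAPs had log2 ratios between -0.68 and 0.05.

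Ifitm1 was lower in mouse cells of 5 types. In T or NK cells, 0 UMIs were found in 85 mouse cells, which allows up to 3.43 CPM, against 734 CPM in 600 rat cells, at least 214-fold lower. In vascular endothelial cells, 1.93 CPM stood against 127 CPM, and in tenocytes 1.78 against 158 CPM from 1 mouse UMI. The mouse cells of these types held more Ifitm1 UMIs on the rat row than on the mouse row, 60 against 16 and 3 against 1. Both ratios stayed past 2-fold in all 9 alternatives, among them one with both rows added. In FAPs, 13 UMIs in 122 mouse cells gave a log2 ratio of -4.52 to the 270 CPM of rat cells. In macrophages, mouse Ifitm1 was found at 254 CPM against 517 CPM, so its row was not empty, and this difference turned to 0.17 on the log2 scale when cells with 2 markers were let in. At least 2-fold lower values were found for 12.1% of all genes in T or NK cells, 12.3% in vascular endothelial cells, 9.49% in FAPs and 15.4% in tenocytes (13.6%, 12.4%, 11.8% and 8.55% were higher). Ifitm2 was also lower in mouse T or NK cells (54.9 against 236 CPM), as was Mx1 (1.14 against 21.6 CPM). Irf1 was lower in mouse tenocytes, with 114 CPM (87.6 to 145) against 359 CPM (344 to 375), but these were 39 cells.

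Isg15 had 547 CPM (532 to 564) in mouse vascular endothelial cells, where 663 of 1106 cells (59.9%) had a UMI. It had 189 CPM in macrophages, 119 CPM in T or NK cells, 102 CPM in FAPs, 13.1 CPM in B cells, 12.4 CPM in tenocytes and 5.27 CPM in myogenic progenitors, the last from 2 UMIs. The mouse row gave 0.983 to 7.18 UMIs per 1e6 UMIs in rat cells of the chimera. In mouse vascular endothelial cells thinned to 1000 UMIs, Isg15 was found in 46 of 81 cells with Ifit3 (56.8%, 45.3 to 67.8) and in 277 of 977 without (28.4%, 25.5 to 31.3). It was found in 56 of 97 with Ifit2 (57.7%, 47.3 to 67.7) and in 267 of 961 without (27.8%).

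Apart from Isg15 and Ifitm1, the members that could be read in vascular endothelial cells were less than 2-fold apart between the species. Ifitm3 had 3583 against 2923 CPM, Ifitm2 1560 against 1148 CPM, Irf1 378 against 415 CPM, Irf7 68.6 against 54.1 CPM, Ifit2 157 against 94.1 CPM and Ifit3 96.9 against 49.7 CPM. The interval of each log2 ratio left out 0. The pathway lists differed more. Of 34 other induced genes read, 21 were at least 2-fold higher in mouse vascular endothelial cells and 2 lower, with a median log2 ratio of 1.62, against 0.04 over all genes and 12.4% of genes higher. They count Ifit1, whose rat row was too empty to be read. They include Rsad2 (233 against 4.64 CPM), Xaf1 (128 against 4.64 CPM), the guanylate-binding protein gene Gbp5 (1626 against 59 UMIs) and Cxcl10 (938 against 150 CPM). With only genes whose rat row had at least 100 UMIs in the SD rat library, 17 of 30 were higher and 2 lower, with a median of 1.44, against 10.8% of all genes higher. Of 11 receptors and signal carriers read, 5 were higher and 0 lower, but the rat row of Irf9, 1 of the 5, held only 3 UMIs in the SD rat library. With the same minimum on the rat row, 3 of 9 were higher and 0 lower.

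In FAPs, 13 of 25 other induced genes with at least 100 UMIs on the rat row in the SD rat were higher in mouse cells and 1 lower, against 11.6% and 9.53% of all genes. In macrophages, where 10.1% of all genes were higher and 24.5% lower, 3 of 20 were higher, led by Samhd1 (294 against 14.7 CPM), and 4 lower, among them Cxcl10 (111 against 442 CPM). Among the members, 0 passed 2-fold in myogenic progenitors (7.86% of all genes higher, 19.0% lower) and B cells (8.51% and 16.4%). For the list in tenocytes and myogenic progenitors, 5 of 8 and 5 of 7 were lower and 1 and 0 higher, with 39 and 35 mouse cells. Cxcl9 was at 0 UMIs in both of these mouse types, against 100 and 130 CPM in rat cells.

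**Figure D5:**
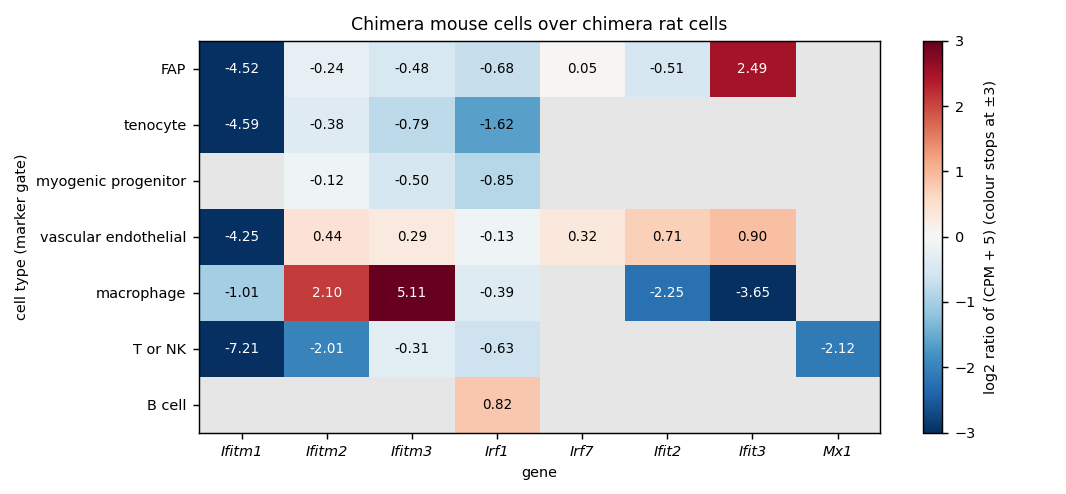
Log2 ratio of (CPM + 5), chimera mouse over chimera rat, for 8 members with a usable rat row and 7 cell types, with red for higher in mouse cells, grey for pairs under 100 UMIs, and the colour ending at 3. Macrophages have Ifitm3 at 5.11 and Ifit3 at -3.65, while vascular endothelial cells stay within 1 except for Ifitm1 (-4.25).

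Of the interferon ligands searched, Ifng was found in T or NK cells of the chimera, with 71 UMIs (81.2 CPM) in 85 mouse cells and 6 UMIs (1.14 CPM) in 600 rat cells. Mouse Ifnb1 had 9 UMIs, in 2 of 47 mouse macrophages, out of 67 UMIs on its row in the whole chimera library, so most lay outside the mouse cell types compared. Ifnk had 20 UMIs in chimera rat tenocytes (3.62 CPM). Apart from these and from Ifnb1 in rat macrophages, every combination of ligand, cell type and population had at most 4 UMIs.

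For 8 members, rat cells of the chimera placed few UMIs on the mouse row of the pair, from 0.107% for Ifitm1 to 2.83% for Ifit2, against a median of 4.40% over 11685 gene pairs. Isg15 was the exception, with 97.4% of its UMIs, 150 against 4, on the mouse row. These shares are pooled over all rat cells. Where a member was low in a type the share was larger, as for Ifitm3 in myofibres (47.1%, 74 UMIs on the mouse row against 83), T or NK cells (25.6%) and macrophages (15.5%) and for Ifitm2 in myofibres (34.7%). Misassigned rat reads and free mouse RNA cannot be told apart on the mouse row. In mouse cells, 9.58% of the Ifitm1 UMIs lay on the rat row, 90 against 849 on the mouse row.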

How the data were processed

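Single-cell RNA sequencing (scRNA-seq) libraries of skeletal muscle from 1 rat-mouse chimera and 1 SD rat were read as raw UMI counts per gene and barcode, as deposited by the authors, who made them with Cell Ranger 7.1.0. Per the submitters' processing notes the genome builds were mRatBN7.2 and GRCm39. The chimera was mapped to both genomes and the SD rat to rat rows alone, so a rat read that matches a mouse gene as well can be lost in the chimera only.

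Barcodes had at least 500 UMIs, 200 genes and at most 20% mitochondrial UMIs. Scrublet (scanpy 1.11.5, expected rate 8%) marked doublets, 444 of the 12174 passing in the chimera (3.65%) and 164 of the 8980 in the SD rat (1.83%), which were removed. Chimera cells with at most 20% of UMIs on mouse rows were read as rat, those with at least 80% as mouse. Cells took the type with the most distinct markers, at least 3, and ties stayed ungated. Myofibres needed 5% of UMIs on myofibre markers and fewer than 3 markers of any other type. The myofibre rule and the order in which types were read were set after marker counts had been seen.

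UMIs were summed per type and divided by all UMIs of that species (CPM). Ratios used CPM plus 5, and a ratio was read with at least 100 UMIs over both groups and counted when at least 2-fold. With 1 library per group there was no test. Intervals are exact 95% intervals (Poisson for levels, binomial for shares and ratios) and cover counting error only. Shares were read after thinning cells to 1000 UMIs. The script was tested on simulated data. Alternatives concerned gates, species thresholds, doublets, minimum UMIs, scaling, pseudocount and cells with many UMIs.

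All 9 members are named. Of the pathway lists, the genes to name were those past 2-fold, up to 5 per type, and the 3 of highest level, but not all of them are given. The members and lists were chosen with earlier results of these data known. The splits of macrophages by Ifnb1 and of monocytes or neutrophils by S100a8 and S100a9 were added after values were seen. The values of 1 marker of monocytes or neutrophils are not reported here.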

Additional observations from a re-analysis of the deposited data

Results flagged for a closer look

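The 1653 mixed barcodes of the chimera, with between 20% and 80% of UMIs on mouse rows, entered no comparison, and all 9 members were found in them. Summed over both rows, Ifitm3 had 21541 UMIs, Ifitm2 10593, Irf1 3095, Isg15 2473, Ifitm1 1184, Ifit2 1010, Ifit3 474, Irf7 381 and Mx1 24. The mouse row held 63.6% of the Ifitm3 UMIs and 10.1% of the Ifitm1 UMIs.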

How the results depend on the processing

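No paired analysis was possible because the labels give 1 library per group and no replicate numbers. Of the 437 values under alternatives, 362 stayed within the limits set, 73 moved beyond them and 2 changed sign. Lower member values in chimera rat cells were 8 with a minimum of 30 UMIs and 10 with no minimum, against 4. Ifitm3 in SD rat vascular endothelial cells was 2339 CPM with 2 markers and 2442 CPM with 4, against 2388 CPM, and in myofibres 78.1 CPM with 4 markers, 115 CPM with a myofibre share of 2% and 52.3 CPM with 10%, against 70.3 CPM. The share of vascular endothelial cells with at least 2 of the 4 antiviral genes was 7.11%, 4.66% and 6.77% (SD rat, chimera rat, chimera mouse) at 2000 UMIs and 14.3%, 14.4% and 23.3% with no thinning. Ifitm3 in mast cells turned to -0.33 when each cell's CPM was averaged, and Ifitm1 in mouse over rat macrophages to 0.17 with 2 markers. Other counts stayed within 1.5 times, and every other value that passed 2-fold kept its direction under the alternatives run. Scaling by all UMIs in place of UMIs of the same species moved the median log2 ratio of chimera rat over SD rat by over 0.1 in most types, for example from -0.04 to -0.21 in vascular endothelial cells.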
